A study of Mus musculus with 6 samples.

Results

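The genes described here encode the subunits of the mitochondrial respiratory chain and of ATP synthase, compared between Gpx4 knockout and control mouse keratinocytes. They were chosen by symbol alone: names starting with Nduf, Uqcr or Atp5, names starting with Cox4, Cox5, Cox6, Cox7 or Cox8, and Sdha, Sdhb, Sdhc, Sdhd and Cyc1. This gave 91 genes on 180 probe sets, among 18193 genes that had a probe set annotated to 1 gene. Complex I had 36 genes, complex II 4, complex III 9, complex IV 17 and complex V 17. The remaining 8, Ndufaf1 to Ndufaf8, are assembly factors of complex I rather than subunits and were counted apart. Each gene was represented by its probe set with the highest mean deposited intensity over the 6 arrays, and 40 genes had a single probe set. A further 10 probe sets that pair such a symbol with another gene were not used.

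RNA came from primary cultures of keratinocytes, which form the epidermis, taken from newborn mice with a C57BL6/FVB genetic background. In the knockouts (labelled Gpx4 KO) the gene for Gpx4, a selenium enzyme that detoxifies lipid peroxides, had been deleted by a cre under the Keratin-14 promoter, which is active in basal keratinocytes. The cells of each genotype were pooled within a litter, which gave 3 knockout and 3 control pools from litters A, B and C, with 1 array per pool. All pools were prepared and grown in media with 100 nM sodium selenite, and the cre and Gpx4 alleles that the control mice carried are not given in the sources used here.

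Signal levels are quantile-normalized intensities, and each log2 change is the knockout minus control difference in log2(intensity + 16) with its SE, fitted by limma with a term for litter. Each array measured 45037 probe sets beside its control spots, the deposited median lay between 15.9 and 20.4, and with 6 arrays it is their number that sets the precision. Gpx4 itself had intensities of 212, 259.7 and 216 in the knockouts of litters A, B and C, against 497, 551 and 536 in their controls. Its log2 change was -1.15 ± 0.091 (limma adjusted p = 0.0206), and it did not pass with the intensities scaled as deposited (-1.34, limma adjusted p = 0.122). The other Gpx4 probe set, which was dimmer, also had knockouts below controls (-1.40 ± 0.21) but did not pass (limma adjusted p = 0.063). The defining keratinocyte markers were present, with a summed level of 10 genes of 33364 to 34506 in knockouts and 33277 to 36177 in controls. Summed melanocyte markers (7 genes) lay at 6326 to 6951 in knockouts and 4562 to 4723 in controls, and summed fibroblast markers (8 genes) at 1321 to 1633 in knockouts and 399 to 1158 in controls, with the mean of Lum under 16. Summed immune markers (7 genes, 4 of them with a mean under 16) lay at 101 to 137 in knockouts and 79 to 113 in controls. Xist had 1229, 1214 and 1259.8 in knockouts, against 502, 389 and 536 in controls, and the Y-linked Eif2s3y had 3.18, 0.667 and 4.62 in knockouts, against 155, 178 and 185 in controls, so sex-linked transcripts moved with genotype. The part of these differences in the values below was not tested, and fewer cells of a type cannot be told apart from less RNA per cell in pooled material.

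The respiratory chain passes electrons from NADH, through complex I, or from succinate, through complex II, by way of coenzyme Q to complex III, then by cytochrome c to complex IV, which reduces oxygen. Proton pumping by complexes I, III and IV builds the gradient that complex V uses to make ATP. The subunits measured here are nuclear-encoded and are imported into mitochondria, where they join the few subunits made from mitochondrial DNA. Besides making ATP, the chain is a source of superoxide and hydrogen peroxide.

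No respiratory chain gene passed the test between genotypes on its brightest probe set, while a dimmer probe set of Cox7a2l did, as given below. By limma 0 of the 91 genes were higher and 0 lower at an adjusted p of 0.05, where 0.42% of all 45037 probe sets passed. The lowest adjusted p was 0.0641, for Uqcrh. At an unadjusted p under 0.05, 4 genes were higher and 17 lower, or 4.4% and 18.7% of the members. Over all probe sets that was 7.06% higher and 7.58% lower. Members are brighter than most probe sets, so the 1781 genes with a mean intensity of at least 443 (the lower quartile of the members) were set beside them, and of these bright genes 16.9% were higher and 16.8% lower. The share of members lower at that limit was therefore near the share among bright genes, and the share higher was smaller.

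The changes were small and leaned to lower values in the knockouts. Of the 91 log2 changes 65 were below 0 (71.4%), against 49.9% among bright genes and 49.5% among all probe sets. Their median was -0.088, against 0.00062 for bright genes, and they ran from -0.50 ± 0.075 for Uqcrh to 0.45 ± 0.073 for Ndufa12. Within the litters the members' median was -0.14 in A, -0.065 in B and -0.068 in C. The 95% interval of the log2 change lay between -1 and 1 for all 91 genes and between -0.5 and 0.5 for 70 of them. These bounds are on the log2(intensity + 16) scale, which compresses the folds of dim genes, and for members with low intensities they do not bound the fold of the intensity itself. With the intensities scaled as deposited the members' median was -0.26 and that of bright genes -0.17. This left the members 0.086 below bright genes, against 0.088 after quantile normalization. A shift of all arrays to a common median gave -0.20 and -0.11. That shift moves the log2 change of every gene by the same amount, so its gap could not differ from the one as deposited.

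**Figure D1:**
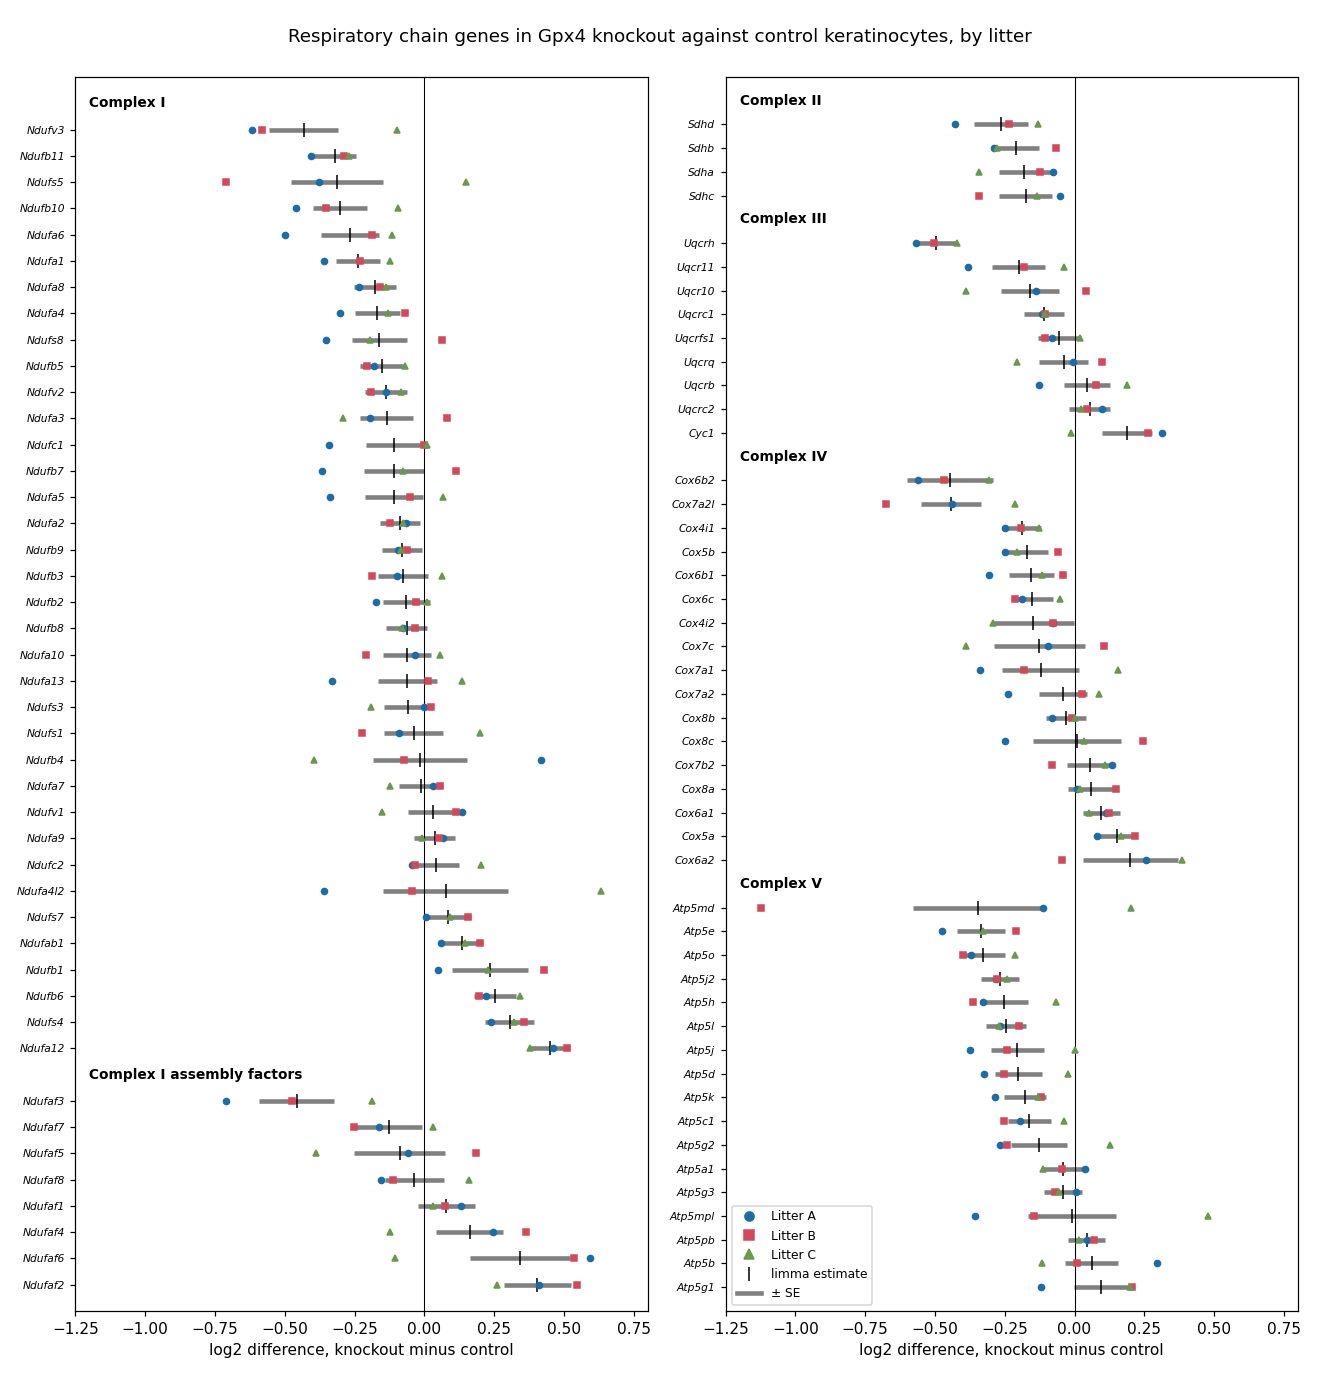
Log2 difference between knockout and control (horizontal axis) for each of the 91 genes, grouped by complex and sorted by the limma estimate. Coloured points are litters A, B and C, the black tick is the limma estimate and the grey bar its SE; 65 estimates lie below 0, with Uqcrh lowest and Ndufa12 highest.

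The knockout intensities lay wholly below the control intensities for 23 of the 91 genes (25.3%) and wholly above them for 8 (8.79%). Among all probe sets the shares were 9.43% below and 8.79% above, and among bright genes 17% below and 16.8% above. A log2 difference of the same sign in all 3 litters was found for 35 genes on the lower side and 13 on the higher side (38.5% and 14.3%), against 18.3% and 18.1% of all probe sets and 27.7% and 27% of bright genes. Complex V supplied 8 of the 23 genes whose knockouts lay below, complex I 7, complexes II and IV 3 each and complex III 2.

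Uqcrh and Ndufa12 stood at the ends of the list. Uqcrh, the hinge protein of complex III that contacts cytochrome c1, had intensities of 1036, 1069 and 949 in the knockouts of litters A, B and C, against 1543, 1522 and 1276 in their controls. All 3 knockouts lay below all 3 controls, with a log2 change of -0.50 ± 0.075, or 1.41-fold lower on the log2(intensity + 16) scale (limma adjusted p = 0.0641, 95% interval -0.68 to -0.32). The other Uqcrh probe set gave -0.27 ± 0.099 (limma adjusted p = 0.289). Ndufa12, an accessory subunit of the matrix arm of complex I, had intensities of 1939, 1937 and 1965 in the knockouts of litters A, B and C, against 1405, 1355 and 1506 in their controls. All 3 knockouts lay above all 3 controls, with a log2 change of 0.45 ± 0.073, or 1.37-fold higher (limma adjusted p = 0.0715, 95% interval 0.28 to 0.62). Ndufa12 lies on chromosome 10, as do Gpx4 and the members Ndufa4l2, Ndufs7, Uqcr11, Atp5b and Atp5d. The part of strain differences linked to the targeted gene in the values of these members was not tested. The probe sets of Ndufa12 did not give 1 size: 2 others with a mean over 100 gave 0.23 ± 0.073 and 0.061 ± 0.09. Scaled as deposited, Uqcrh had a log2 change of -0.67 and Ndufa12 one of 0.30 (limma adjusted p = 0.417 and 0.763), and with the 40% dimmest probe sets removed both passed (0.0195 and 0.02). In that last fit 523 of 27022 probe sets were higher and 613 lower.

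The promoters of these genes were examined for the motifs of factors known to act on nuclear respiratory genes: NRF1 (GCGC, any base, then TGCGC), the ETS family member GABPA (CCGGAAG) and YY1 (AAGATGGC), on both strands, from 250 bases before to 50 after the start. The stretches below are the 150 bases before the start from RefSeq on GRCm38.p6, 5′ to 3′ on the strand of the gene, with motif matches in capitals. Uqcrh and Ndufa12 are shown as the lowest and highest members, and Sdhd and Atp5h as genes of complexes II and V whose knockouts lay below their controls and whose promoters hold 2 of the motifs.
Uqcrh, chr4:116075071-116075220, minus strand: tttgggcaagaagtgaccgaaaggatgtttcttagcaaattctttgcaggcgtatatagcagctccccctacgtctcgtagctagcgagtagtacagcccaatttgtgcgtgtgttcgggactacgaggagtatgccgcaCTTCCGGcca
Ndufa12, chr10:94198885-94199034, plus strand: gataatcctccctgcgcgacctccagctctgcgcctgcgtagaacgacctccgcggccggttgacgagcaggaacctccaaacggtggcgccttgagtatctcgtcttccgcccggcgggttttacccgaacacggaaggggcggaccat
Sdhd, chr9:50603850-50603999, minus strand: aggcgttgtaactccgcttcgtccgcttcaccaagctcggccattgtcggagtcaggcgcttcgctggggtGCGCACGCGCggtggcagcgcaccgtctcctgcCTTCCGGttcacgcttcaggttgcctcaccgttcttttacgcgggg
Atp5h, chr11:115419920-115420069, minus strand: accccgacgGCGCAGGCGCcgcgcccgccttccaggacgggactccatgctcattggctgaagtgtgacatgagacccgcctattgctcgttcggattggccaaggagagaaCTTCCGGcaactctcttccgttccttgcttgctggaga

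The capitals in Uqcrh are an ETS match, and in Sdhd and Atp5h an NRF1 match followed by an ETS match, all with the motif on the opposite strand. The Ndufa12 window holds none of these letters. Of the 91 genes 74 were found in the promoter table. NRF1 letters were present in 17 of these (23%), against 5.19% of the 27025 genes in the table and 15.1% of bright genes. ETS letters were present in 19 (25.7%), against 9.93% and 23%, and YY1 letters in 10 (13.5%), against 3.19% and 6.26%. Any of the 3 was found in 40 genes (54.1%), against 16.4% of all genes and 38.1% of bright genes. Among the 20 genes in the table whose knockouts lay below their controls 7 held NRF1 letters, 9 ETS letters and 1 YY1 letters. Among the 7 whose knockouts lay above, 0 held NRF1 letters, 1 ETS letters and 1 YY1 letters. These are matches of letters in a window and not measured binding sites.

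**Figure D2:**
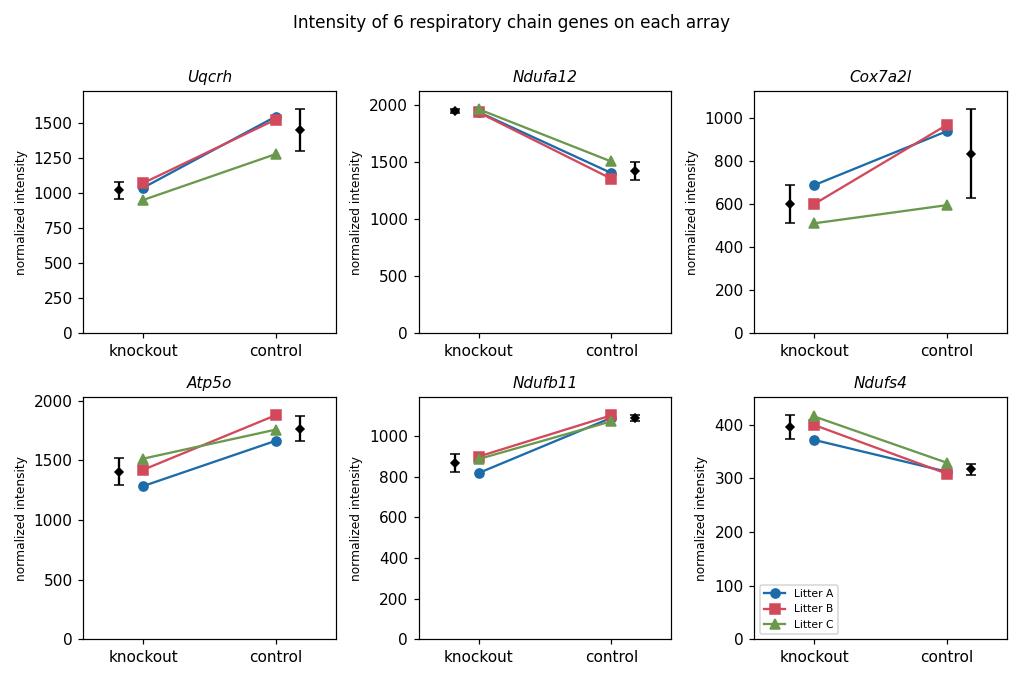
Quantile-normalized intensity (vertical axis, from 0) of 6 genes in knockout and control pools. Coloured points joined by lines are litters A, B and C, and black diamonds with bars are means ± SD over 3 arrays; all 3 knockouts of Uqcrh, Atp5o and Ndufb11 lie below all controls, and all 3 of Ndufa12 and Ndufs4 lie above.

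Complex I genes had a median log2 change of -0.070, with 26 of 36 below 0 and litter medians of -0.12, -0.038 and -0.073. Without litter C the median was -0.12, and without the control of litter C -0.11. At an unadjusted p under 0.05, 3 were higher and 5 lower (8.33% and 13.9%), and 0 passed. Both shares were under those of bright genes, 16.9% and 16.8%, and above those of all probe sets, 7.06% and 7.58%. For the core subunits that carry the flavin and the iron-sulphur clusters, the brightest probe sets gave values on both sides of 0, and the other probe sets of Ndufv1 and Ndufv2 gave lower ones. Ndufv1, which binds NADH and the flavin, had a log2 change of 0.033 ± 0.092 on its brightest probe set and -0.35 ± 0.086 (limma adjusted p = 0.148) and -0.22 ± 0.081 on its other 2. Its partner Ndufv2 had -0.14 ± 0.075 on the brightest and -0.40 ± 0.09 (limma adjusted p = 0.127) and -0.22 ± 0.081 on the other 2. Ndufs1, which holds several iron-sulphur clusters, had -0.038 ± 0.11, and Ndufs3, a core subunit of the coenzyme Q-binding module, -0.057 ± 0.087. Ndufs7 and Ndufs8, which carry the last clusters before coenzyme Q, had 0.086 ± 0.08 and -0.16 ± 0.1, and the other 4 Ndufs8 probe sets with a mean of 100 or more ran from -0.19 ± 0.1 to 0.015 ± 0.078. None of these probe sets passed, and on the brightest the sign of Ndufv1 and of Ndufs7 turned when the arrays were scaled as deposited (-0.14 and -0.086) or shifted to the same median (-0.079 and -0.027).

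On the brightest probe sets, the larger values of complex I came from accessory subunits. Ndufs4, an accessory subunit near the NADH-oxidizing end, had intensities of 372, 399.6 and 416 in the knockouts of litters A, B and C, against 312, 309 and 329 in their controls. Its knockouts lay above its controls, with a log2 change of 0.31 ± 0.087 (limma adjusted p = 0.189). Ndufb6, a subunit of the membrane arm, also had knockouts above controls, at 1684, 1609.8 and 1753 in knockouts, against 1444, 1404 and 1378 in controls (0.25 ± 0.074, limma adjusted p = 0.203). Its other probe set, also bright, gave 0.028 ± 0.083, which is near 0. Ndufab1, the mitochondrial acyl carrier protein, and Ndufb1 were the others with knockouts above controls, at log2 changes of 0.13 ± 0.076 and 0.24 ± 0.14.

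On the lower side, Ndufb10 and Ndufb11 of the membrane arm and Ndufa6 had log2 changes of -0.30 ± 0.098, -0.32 ± 0.077 and -0.27 ± 0.1. All 3 had knockouts below controls, and none passed (limma adjusted p = 0.237, 0.145 and 0.317). Ndufb11 and Ndufa1, an accessory subunit of the membrane arm, are the members on the X chromosome. Ndufb11 had intensities of 817, 898 and 886 in the knockouts of litters A, B and C, against 1089, 1101 and 1071 in their controls, and its 3 probe sets gave log2 changes of -0.32 ± 0.077, -0.20 ± 0.1 and -0.31 ± 0.09. Ndufa1 had intensities of 1391, 1588 and 1473 in the knockouts of litters A, B and C, against 1791, 1865 and 1606 in their controls (-0.24 ± 0.079, limma adjusted p = 0.25). Both had lower intensities in all 3 knockouts, the pools with the higher Xist values given above. The part of the sex-linked difference in these values was not tested.

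The assembly factors of complex I, which help build the enzyme and then leave it, showed no common direction: 4 of 8 were above 0 and the median was 0.022. That median was -0.18 scaled as deposited and -0.12 after a shift of all arrays to a common median. Ndufaf2, a paralog of Ndufa12 that occupies its place in an assembly intermediate, had intensities of 138, 127 and 105 in the knockouts of litters A, B and C, against 99.9, 81.8 and 85 in their controls. Like those of Ndufa12, its knockouts lay above its controls, with a log2 change of 0.40 ± 0.12 (limma adjusted p = 0.203). Ndufaf3 had intensities of 109.7, 125 and 99.6 in the knockouts of litters A, B and C, against 189.7, 179.7 and 116 in their controls, a log2 change of -0.46 ± 0.13 (limma adjusted p = 0.2). The groups overlapped here, because the control of litter C lay below the knockout of litter B. Ndufaf6 and Ndufaf4 had log2 changes of 0.34 ± 0.18 and 0.16 ± 0.12. Litters A, B and C gave 0.60, 0.54 and -0.10 for Ndufaf6 and 0.25, 0.37 and -0.12 for Ndufaf4.

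All 4 genes of complex II, succinate dehydrogenase, had log2 changes below 0, and none passed. Sdhd, one of its membrane anchors, had intensities of 326, 365 and 387 in the knockouts of litters A, B and C, against 444, 432 and 425 in their controls (-0.26 ± 0.096, limma adjusted p = 0.285). Sdhb, the iron-sulphur subunit, had intensities of 826, 943 and 883 in the knockouts of litters A, B and C, against 1014, 988 and 1073 in their controls (-0.21 ± 0.084, adjusted p by limma 0.323). On the brightest probe sets of both genes all 3 knockouts lay below the controls, and the other Sdhd probe set gave 0.12 ± 0.2, with overlap. The anchor Sdhc, with 428, 415 and 425 in knockouts, against 444, 531 and 468 in controls, showed the same separation on its brightest probe set (-0.18 ± 0.094). Its other probe set gave the opposite separation and a larger value, with 302, 237 and 278 in knockouts, against 234, 194 and 156 in controls (0.46 ± 0.13, limma adjusted p = 0.179). The groups of the flavoprotein Sdha overlapped, with 561, 498 and 434 in knockouts, against 593, 543 and 555 in controls (-0.18 ± 0.091). The complex median was -0.20, and within the litters it was -0.18 in A, -0.18 in B and -0.21 in C. With the mean of all probe sets of each gene, dim ones included, it was -0.088. Sdhc and Sdhd each had another probe set with a log2 change above 0. The other Sdha probe set with a mean of 100 or more gave -0.29 ± 0.12 (limma adjusted p = 0.325), and only a dim Sdha probe set lay above 0.

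Complex III, which oxidizes coenzyme Q and reduces cytochrome c, held Uqcrh and otherwise small values, with a median of -0.055 (-0.10 without litter B) and 6 of 9 genes below 0. Its catalytic subunits did not share a direction. Cyc1, cytochrome c1, had intensities of 1470.2, 1275 and 1524 in the knockouts of litters A, B and C, against 1179, 1059 and 1539.8 in their controls (0.19 ± 0.091, limma adjusted p = 0.407). The knockouts were higher in litters A and B and nearly equal in litter C, where both arrays were high. The Rieske iron-sulphur protein Uqcrfs1 had a log2 change of -0.055 ± 0.077, and the core proteins Uqcrc1 and Uqcrc2 had -0.11 ± 0.071 and 0.055 ± 0.073. Uqcrc2 had knockouts above controls by a small margin, at 1145, 1129 and 1107 in knockouts, against 1069, 1095 and 1090.2 in controls, a direction that turned when the arrays were scaled as deposited (-0.11). Uqcr11, a small subunit, had knockouts below controls (-0.20 ± 0.094, limma adjusted p = 0.392).

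Complex IV, cytochrome c oxidase, had a median log2 change of -0.12, with 11 of 17 genes below 0. Its litter medians were -0.19, -0.045 and 0. Only 9 of the 17 genes had a mean intensity of 100 or more. The median of -0.12 is the value of Cox7a1 and the litter C median that of Cox8b, both with a mean under 16. The litter B median is that of Cox6a2, which was also dim, so these values do not describe the bright subunits. Without litter A the median was -0.012, without the knockout of litter A -0.048 and without litter C -0.077. Cox7a2l, a relative of Cox7a2 that joins complexes III and IV in supercomplexes, had intensities of 686, 599 and 509.8 in the knockouts of litters A, B and C, against 936, 966 and 594 in their controls. The knockouts were lower in every litter, but the groups overlapped because the control of litter C lay below the knockouts of litters A and B (-0.44 ± 0.11, limma adjusted p = 0.145). Its other 2 probe sets gave -0.53 ± 0.1 and -0.79 ± 0.1, and the last of these passed (limma adjusted p = 0.0454), with 434, 486 and 338 in knockouts, against 831, 925 and 505 in controls. It was the 1 probe set of the 180 that passed, and it is not the brightest of its gene.

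The subunits that surround the catalytic core of complex IV gave opposed small values. Cox5a, a subunit on the matrix side, had intensities of 3097, 3343 and 3218 in the knockouts of litters A, B and C, against 2929, 2878 and 2869 in their controls, all above controls (0.15 ± 0.07, limma adjusted p = 0.381). Cox5b, which binds zinc, had 2124, 2362 and 2606 in knockouts, against 2527, 2460.5 and 3009.7 in controls (-0.17 ± 0.075), with overlap. Cox4i1, the main isoform of subunit 4, had 2276, 2457 and 2233 in knockouts, against 2709, 2811 and 2439 in controls. Each knockout was lower than its litter's control, and the groups overlapped by 1 array (-0.19 ± 0.07, limma adjusted p = 0.293). Scaled as deposited, the log2 change of Cox5a was 0.0067.

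Several subunits of complex IV have isoforms that other tissues use, and these were compared one by one. Heart and skeletal muscle use Cox6a2, Cox7a1 and Cox8b. Cox7a1 lay between 2.97 and 9.1 on all 6 arrays, Cox8b between 0.767 and 1.73 and Cox6a2 between 21.3 and 35.1. Their widespread counterparts Cox6a1, Cox7a2 and Cox8a had log2 changes of 0.10 ± 0.067, -0.041 ± 0.087 and 0.058 ± 0.082, none passing. Cox4i2, the isoform known from lung and from low oxygen, lay between 8.35 and 15.3. Of the isoforms known from testis, Cox8c had 53.1, 60.2 and 33.1 in knockouts, against 66.1, 48.2 and 32 in controls, with overlap. Its other, dimmer probe set had knockouts above controls (0.44 ± 0.17, limma adjusted p = 0.306). Cox6b2 had 28, 25.4 and 26 in knockouts, against 49, 41.1 and 35.9 in controls. All 3 Cox6b2 knockouts lay below the controls, at a log2 change of -0.44 ± 0.15 (limma adjusted p = 0.266), while its widespread counterpart Cox6b1 had -0.15 ± 0.08. Ndufa4, now placed in complex IV despite its name, had -0.17 ± 0.081, and its paralog Ndufa4l2, which low oxygen induces, had 18.7, 36.8 and 33.7 in knockouts, against 28.6, 38.4 and 16.1 in controls, with overlap and no shared sign. By their symbols, Ndufa4 and Ndufa4l2 were counted with complex I in the counts and medians given here, and not with complex IV.

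Complex V, ATP synthase, had 14 of 17 genes below 0, a median of -0.18, and litter medians of -0.27, -0.21 and -0.056. Without litter B the median was -0.12, as it was without the control of litter B. Atp5a1 and Atp5b, the alpha and beta subunits of the head, had log2 changes of -0.041 ± 0.073 and 0.061 ± 0.095, with overlapping groups in both. The gamma subunit Atp5c1, which turns within the head, had 1932, 1942 and 1937 in knockouts, against 2217, 2318 and 1989 in controls, all below controls (-0.16 ± 0.077, limma adjusted p = 0.398). Atp5g1, Atp5g2 and Atp5g3, which encode the same ring subunit c, had 0.094 ± 0.097, -0.13 ± 0.1 and -0.040 ± 0.067.

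The 4 smallest p-values of complex V belonged to stalk and small membrane subunits. Atp5o, the stalk subunit OSCP that ties the head to the stator, had intensities of 1284, 1420.4 and 1514 in the knockouts of litters A, B and C, against 1664, 1878 and 1757 in their controls (-0.33 ± 0.077, limma adjusted p = 0.139). Its other bright probe set gave 0.049 ± 0.14. Atp5e, the epsilon subunit, had 673, 764 and 767 in knockouts, against 941, 886 and 966 in controls (-0.34 ± 0.086, adjusted p by limma 0.159). The membrane subunit f, Atp5j2, had 1619.9, 1649 and 1638 in knockouts, against 1973, 2004 and 1939 in controls (-0.27 ± 0.069, 0.163 after adjustment in limma), and its other bright probe set gave -0.30 ± 0.078. Subunit g, Atp5l, had 1208, 1207 and 1060.2 in knockouts, against 1458, 1388 and 1281 in controls (-0.25 ± 0.072, 0.203 after adjustment in limma). All 4 had knockouts below controls, as did Atp5h (-0.25 ± 0.086), Atp5d (-0.20 ± 0.086) and Atp5k (-0.18 ± 0.076). Atp5md, a small subunit of the membrane part, had a low log2 change of -0.34 ± 0.24 and differed most in litter B, the 3 litters A to C giving -0.11, -1.12 and 0.20.

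**Figure D3:**
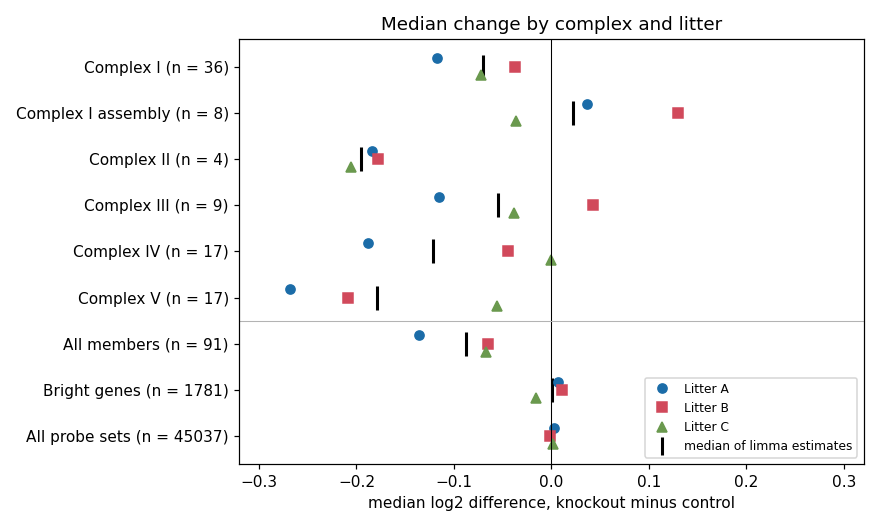
Median log2 difference between knockout and control (horizontal axis) for the genes of each complex, all 91 members, the 1781 bright genes and all 45037 probe sets. Coloured points are the medians within litters A, B and C and black ticks the medians of the limma estimates; complexes II and V lie at -0.20 and -0.18, bright genes and all probe sets near 0.

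Ndufs5 and Ndufv3 had the widest spread between litters of the 91 genes. Ndufs5, an accessory subunit of complex I, had intensities of 590.1, 433 and 76.1 in the knockouts of litters A, B and C, against 772, 718 and 67 in their controls. Both arrays of litter C were far below the other 4, and the log2 change of -0.31 ± 0.16 did not pass (limma adjusted p = 0.444). The litter means of its log2 level spanned 2.98, a span reached by 8 of 45037 probe sets, itself included. Ndufv3, an accessory subunit near the flavin, had intensities of 394, 356 and 261 in the knockouts of litters A, B and C, against 613, 542 and 281 in their controls (-0.43 ± 0.13, limma adjusted p = 0.197). Its litter C arrays were both low, and the control of that litter lay below the knockouts of the other litters. The litter means spanned 0.5 or more in 4 of the 91 genes, with a median span of 0.13 over the members and 0.16 over bright genes. Without litter C, 1 member was higher (Ndufa12) and 9 were lower by limma: Uqcrh, Ndufv3, Cox7a2l, Ndufaf3, Ndufs5, Ndufb10, Atp5o, Atp5h and Ndufb11. That is 1.1% and 9.89% of the members, against 2.9% higher and 3.02% lower of all probe sets without that litter. Members are brighter than most probe sets, and the share of bright genes passing in this fit was not counted. The 9.89% therefore has no like background here. Without the control array of litter C and without the litter block 1 member was higher and 6 lower. In that fit 1129 of all 45037 probe sets were higher and 1284 lower. Without litter A or litter B limma gave 0 members in both directions, but almost no probe set passed in those fits. Over all probe sets 1 was higher and 2 lower without litter A, and 0 passed without litter B.

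**Figure D4:**
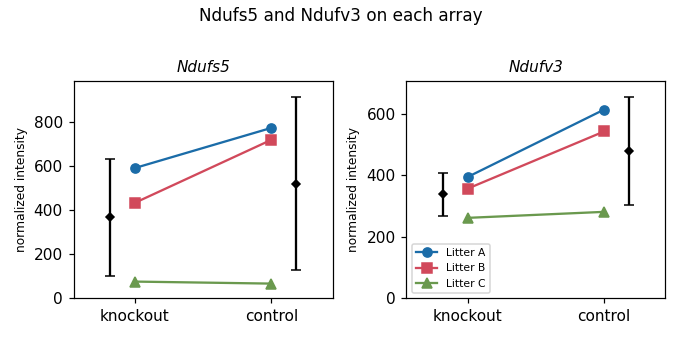
Quantile-normalized intensity (vertical axis, from 0) of Ndufs5 and Ndufv3 in knockout and control pools. Coloured points joined by lines are litters A, B and C, and black diamonds with bars are means ± SD over 3 arrays; both arrays of litter C lie below all others in Ndufs5 and in Ndufv3.

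Genes that build, supply and express the chain were compared as 6 lists. By limma 1 gene rose and 0 fell. It was Tomm70a, a receptor of the outer membrane for proteins on their way into mitochondria, with intensities of 664, 678 and 678 in the knockouts of litters A, B and C, against 323, 383 and 391 in their controls (0.86 ± 0.09, limma adjusted p = 0.0343). Its knockouts lay well above its controls, though it did not pass with the intensities scaled as deposited (0.67, limma adjusted p = 0.442) or without litter A or litter B (0.245 and 0.408). The same held when any single array other than the litter C control was left out. The 24 import genes had a median log2 change of 0.23. Within litters A, B and C their medians were smaller, at 0.097, 0.12 and 0.14, and 8, 8 and 7 genes lay below 0. At an unadjusted p under 0.05, 8 were higher and 0 lower. That is 33.3% higher, against 7.06% of all probe sets and 16.9% of bright genes. Among them Timm8a1, a small chaperone of the intermembrane space, had 383, 492 and 572 in knockouts, against 216, 229.8 and 468 in controls (0.70 ± 0.15), and Timm50 and Tomm20, receptors of the inner and outer membrane, had 0.43 ± 0.13 and 0.23 ± 0.068.

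The other 5 lists had medians of the limma changes nearer to 0. The 39 measured assembly factors outside the Ndufaf family had a median of 0.045, with 3 higher (7.69%) and 7 lower (17.9%) at an unadjusted p under 0.05, the second share being near the 16.8% of bright genes. Lower values were found for Sdhaf4 (-0.56 ± 0.14), an assembly factor of complex II, for Acad9 (-0.49 ± 0.14), which acts in complex I assembly, and for Cox20 (-0.48 ± 0.13) and Pet100 (-0.39 ± 0.1), which act in complex IV assembly. The 76 mitochondrial ribosomal protein genes had a median of 0.071, with 7 higher (9.21%, under the 16.9% of bright genes) and 2 lower (2.63%) at that limit, among them Mrps9 (0.41 ± 0.12) and Mrps10 (0.28 ± 0.088). The 13 genes of the tricarboxylic acid cycle, which feeds the chain with NADH and succinate, had a median of -0.072, with Idh2 at -0.27 ± 0.099, Ogdh at -0.28 ± 0.11 and Idh3a at 0.17 ± 0.076. The 14 genes of cytochrome c and coenzyme Q had a median of -0.021, with Cycs, cytochrome c itself, at 0.17 ± 0.082 and Hccs, which attaches its heme, at -0.30 ± 0.093. Hccs lies on the X chromosome. The part of the sex-linked difference in the values of list genes on that chromosome was not tested. The 17 regulators of mitochondrial biogenesis and mitochondrial DNA expression had a median of 0.10. Among these Pprc1, a coactivator related to PGC-1, had 267, 275 and 291 in knockouts, against 167, 176 and 294 in controls (0.40 ± 0.15), and Ppargc1b, which encodes PGC-1 beta, had 49.1, 55.1 and 84.3 in knockouts, against 115, 114 and 64.2 in controls (-0.52 ± 0.26). The litter C control of Pprc1 lay above all knockouts, and that of Ppargc1b lay within the knockout range.

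Probe sets of a gene often disagreed on the sign of these small changes. Of the 39 members with at least 2 probe sets at a mean intensity of 100 or more, 25 had all such probe sets on the same side of 0 and 14 did not. The 14 included Atp5o, Sdhc, Sdhd, Cox5b, Cox6a1, Ndufs8 and Ndufv1. The 5 dimmest members had a mean under 16 on their brightest probe set, Cox4i2, Cox7a1, Cox7b2, Cox8b and Ndufb4, and their small log2 changes carry little information on this scale.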

How the data were processed

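Deposited values are linear intensities of a 1-colour Affymetrix array, 1 per probe set and array, in the authors' deposited table. Per the labels, total RNA was extracted with Trizol and labelled with biotin by in vitro transcription. Background correction, probe summary and scaling are not given in the sources used here, and the trimmed mean ranged from 72.8 to 114.3 between arrays. Here 64 control probe sets were left out, and the intensities were quantile-normalized and tested as log2(intensity + 16) with limma 3.58.1 in R 4.3.3 (lmFit, eBayes with an intensity trend, litter as a block). Two-sided p-values were adjusted by Benjamini-Hochberg over 45037 probe sets, with a threshold of 0.05.

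The labels name a shared litter for same-numbered arrays, which pairs them. Residuals of same-litter arrays correlated at 0.17, 0.047 and 0.21 in litters A, B and C. Those of arrays from different litters correlated at -0.24 to 0.14. The highest, knockout A with control B, was above the value of litter B. Gene names come from the platform annotation (34945 probe sets with 1 gene, 932 with several, 9160 not listed), and the chromosomes and promoters from RefSeq on GRCm38.p6. Members, lists and the rule for naming genes (passing genes, the 4 smallest p per complex or list, core subunits, tissue isoforms, X-linked members) were chosen with earlier results of these data known. Ndufs5, Atp5md and genes whose groups did not overlap were added after their values were seen. For 2 members the brightest probe set differs after normalization. Alternatives were scaling, pseudocounts of 1 and 64, removal of the 40% dimmest probe sets, no block, no trend, the mean of a gene's probe sets, and each litter or array left out. Steps were tested on simulated arrays. Timmdc1 stands in 2 lists.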

Additional observations from a re-analysis of the deposited data

How the results depend on the processing

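The 85 named genes were recomputed under 16 settings, which gave 1358 values. Of these 1272 kept their sign and their side of the threshold, and 40, in 16 genes, had the other sign. Scaled as deposited, the median log2 change was -0.26 for all members, -0.25 for complex I, -0.18 for its assembly factors, -0.38 for complex II, -0.22 for complex III and -0.34 for complex V. After a shift of all arrays to a common median the first 5 of these were -0.20, -0.19, -0.12, -0.32 and -0.16. The mean of all probe sets gave -0.088 for complex II. With 1 litter or array left out, the medians lay between -0.12 and -0.064 for all members, -0.12 and -0.047 for complex I, -0.0046 and 0.11 for assembly factors, -0.24 and -0.19 for complex II, -0.10 and -0.042 for complex III, -0.12 and -0.012 for complex IV and -0.25 and -0.12 for complex V. Members passing were 1 higher and 1 lower without the 40% dimmest probe sets, 1 lower with a pseudocount of 1, and 1 lower when any probe set of the gene counted, which was Cox7a2l and also the 1 lower isoform. Without the dimmest probe sets 523 of 27022 probe sets were higher and 613 lower. The numbers over all 45037 were 271 higher and 330 lower with a pseudocount of 1. Leaving out a litter or array gave 0 to 1 higher and 0 to 9 lower among members, 0 to 1 lower among isoforms, and 0 to 10 higher and 0 to 9 lower among the 6 lists. The highest of these counts came without litter C or its control array, fits in which many more of all probe sets passed, as given above. The lists gave 0 higher as deposited, after the median shift, with a pseudocount of 64 and without a trend, and 2 without the dimmest probe sets. Gpx4 did not pass as deposited (-1.34, limma adjusted p = 0.122), without a trend (-1.15, 0.100), or with litter A or B or any single array but the litter C control left out. Its values then lay between -1.24 and -1.10. Pairing by litter moved no member across the threshold: with no replicate block 0 members passed and the median stayed at -0.088.

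The sign turned as deposited for Ndufa4l2 (-0.0046), Ndufab1 (-0.043), Ndufs7 (-0.086), Ndufv1 (-0.14), Ndufaf4 (-0.041), Uqcrc2 (-0.11), Cox6a1 (-0.075), Cox8a (-0.12), Cox8c (-0.11) and Atp5b (-0.099). After the median shift it turned for Ndufs7 (-0.027), Ndufv1 (-0.079), Uqcrc2 (-0.053), Cox6a1 (-0.016), Cox8a (-0.064), Cox8b (0.029), Cox8c (-0.049) and Atp5b (-0.040). With a litter or array left out it turned for Ndufa4l2 (between -0.20 and 0.31), Ndufs1 (-0.16 and 0.053), Ndufs3 (-0.10 and 0.010), Ndufs5 (-1.37 and 0.53), Ndufv1 (-0.020 and 0.13), Cox7a2 (-0.10 and 0.059), Cox8a (-0.012 and 0.12), Cox8c (-0.18 and 0.20), Atp5b (-0.051 and 0.15) and Atp5md (-0.63 and 0.043). The cause was not tested. A fit without 1 litter leaves 2 pairs. Signal near background limits the 5 members with a mean under 16.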
